A study of Mus musculus with 12 samples.

Results

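Fgf5 and Foxc1 each had an m6A immunoprecipitation peak in all 4 knockdown libraries and in neither scramble library. Both genes were chosen by exactly these values, namely that their knockdown peaks have no scramble partner, so the values are described here and no test is drawn from them. The pair are 2 of the 6074 genes listed in the authors' 4 deposited peak tables. They account for 9 of the 32586 listed regions, 4 in Fgf5 and 5 in Foxc1, and all 9 are marked as found in the knockdown library alone.

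The cells were J1 mouse embryonic stem cells, kept on irradiated mouse embryonic fibroblast feeders in medium with serum and leukemia inhibiting factor. All 3 groups carried a lentiviral shRNA and were selected with puromycin: a scramble control, a knockdown of Mettl14 or a knockdown of Mettl3. Poly(A) RNA was fragmented and precipitated with an antibody against m6A, which gave 6 IP libraries, 2 per group. The 6 libraries without antibody were not analysed here on their own. The tables form 2 sets, called set 1 and set 2, and within a set both knockdowns were compared with the same scramble library. The Mettl14 and Mettl3 values of a set are therefore not independent where they refer to the scramble. No source used here says that the libraries of a group came from separate cultures, so the spread between sets may be technical.

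m6A, N6-methyladenosine, is the most common internal modification of mRNA. It is written by a complex in which Mettl3 is the catalytic subunit and Mettl14 the partner that helps to bind RNA, and it lies mainly in long internal exons and around stop codons. Fgf5 encodes a secreted fibroblast growth factor that is low in naive embryonic stem cells and is a standard marker of the primed, post-implantation epiblast. Foxc1 encodes a forkhead transcription factor needed for somite, vascular, skeletal and eye development, and it is expressed in mesoderm and in mesenchymal cells such as fibroblasts.

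Of the mRNA, 3 stretches carry the peaks, and their coding sequence is shown because every description below refers to them. Each is the coding portion of the stretch shared by all peaks of a site, limited to its last 300 nt. The letters come from the GENCODE mouse transcripts, release M21, on mm10. They run 5′ to 3′ on the transcript strand, the plus strand for both genes, and capitals mark DRACH, the consensus around methylated adenosines (any base but C, a purine, A, C, any base but G). The first stretch, chr5:98275255-98275549, holds codons 166 to 264 of Fgf5, the last codon before the stop. The second, chr13:31807610-31807909, holds codons 135 to 234 of Foxc1. The third, chr13:31808691-31808866, holds codons 495 to 553, the end of the Foxc1 reading frame.
Fgf5 before the stop codon: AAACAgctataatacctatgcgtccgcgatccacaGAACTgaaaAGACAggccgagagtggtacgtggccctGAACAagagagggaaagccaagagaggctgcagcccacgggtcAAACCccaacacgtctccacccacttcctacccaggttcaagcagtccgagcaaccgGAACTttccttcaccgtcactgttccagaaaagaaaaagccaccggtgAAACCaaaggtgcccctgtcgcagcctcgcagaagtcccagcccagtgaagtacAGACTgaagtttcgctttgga
Foxc1 inside the coding sequence: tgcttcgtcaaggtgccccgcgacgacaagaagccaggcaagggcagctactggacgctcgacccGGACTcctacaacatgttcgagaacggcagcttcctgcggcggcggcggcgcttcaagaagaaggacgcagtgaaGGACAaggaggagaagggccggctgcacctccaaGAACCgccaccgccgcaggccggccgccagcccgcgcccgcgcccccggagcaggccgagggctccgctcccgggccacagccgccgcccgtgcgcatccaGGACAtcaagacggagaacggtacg
Foxc1 before the stop codon: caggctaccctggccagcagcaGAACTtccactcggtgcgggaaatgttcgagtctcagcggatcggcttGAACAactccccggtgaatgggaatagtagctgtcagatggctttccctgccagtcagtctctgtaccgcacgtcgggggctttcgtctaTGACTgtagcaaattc

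Fgf5 lies on mm10 chr5:98254184-98277030, plus strand, and its main transcript, Fgf5-201, has 3 exons and 2501 nt. The coding sequence is 792 nt long, and its stop codon, at 98275550 to 98275552, lies inside the last exon, which starts at 98275211. Every one of the 4 Fgf5 peaks lay within this last exon and spanned the stop codon. In the Mettl14 knockdown the peak covered 98275213 to 98275883 (671 nt) in set 1 and 98275211 to 98275833 (623 nt) in set 2. In the Mettl3 knockdown it covered 98275255 to 98275831 (577 nt) in set 1 and 98275224 to 98275831 (608 nt) in set 2. The left edges fell 0 to 44 nt from the start of the exon. The last exon continues beyond the right edges to 98277030, so the peaks took up the front of the exon and not the bulk of the 3′ UTR.

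The 4 libraries placed the Fgf5 peak almost identically. The stretch common to all 4 was the whole Mettl3 set 1 peak, 577 nt, which is 85.7% of the 673 nt that the peaks cover together. The point of greatest pile-up, the summit, lay 146 and 223 nt before the stop codon in Mettl14 set 1 and set 2, and 162 and 148 nt before it in Mettl3 set 1 and set 2. The summits were thus within 77 nt of each other, all in the coding sequence of Fgf5-201. Between 50.2% and 54.4% of each peak was coding sequence of that transcript, and the rest was stop codon and 3′ UTR. A shorter annotated transcript has its last exon start at the same base and end at 98275461. Its stop codon lies at 98275225 to 98275227, so all 4 summits fall in its 3′ UTR, and the peaks cannot tell the 2 transcripts apart before 98275461.

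**Figure D1:**
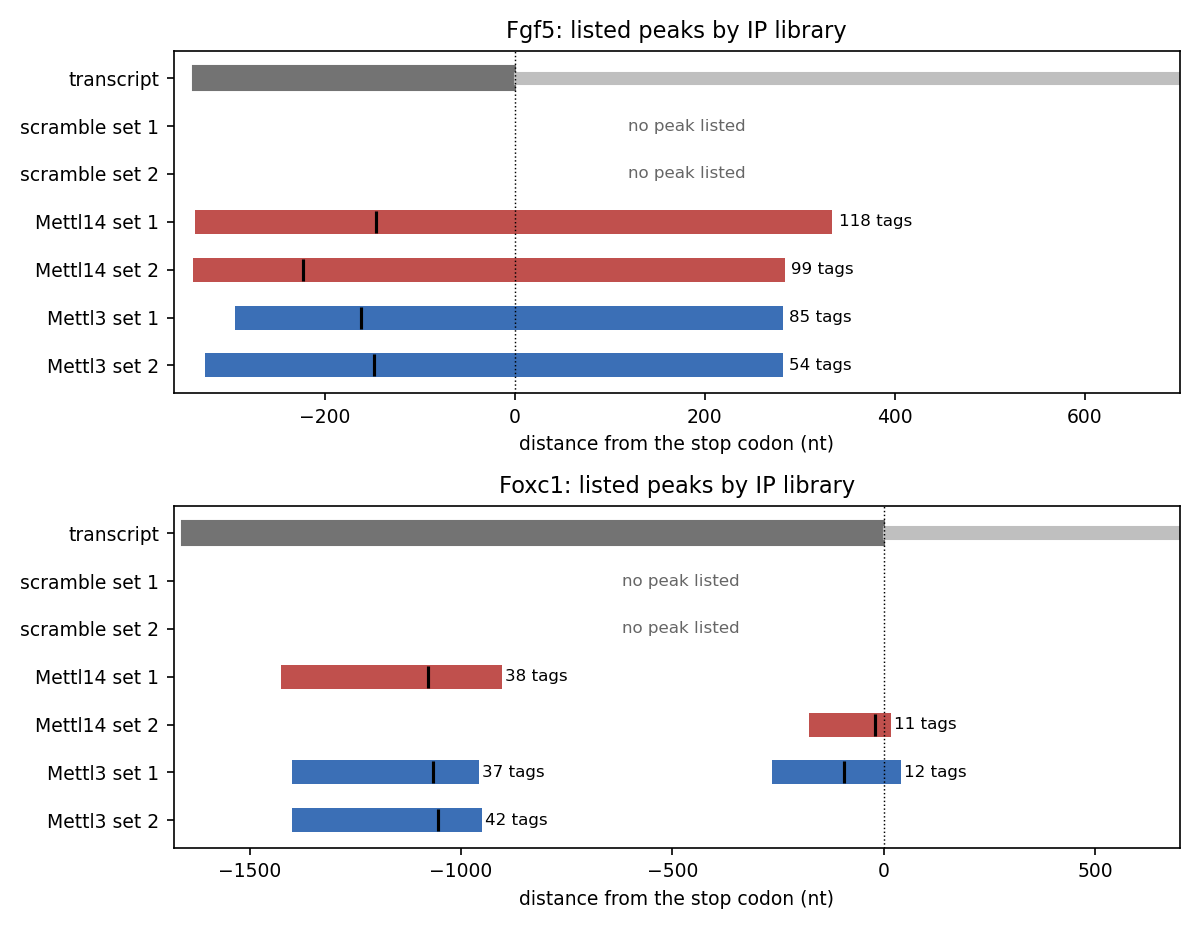
Peaks of Fgf5 (top) and Foxc1 (bottom) in the 6 IP libraries, Mettl14 in red and Mettl3 in blue. The x axis is the distance from the stop codon in nt, each bar is a peak, the black tick is its summit, dark grey is coding sequence (for Fgf5 the part in the last exon) and light grey is the start of the 3′ UTR. The 4 Fgf5 bars overlie each other, whereas the 5 Foxc1 bars fall at 2 places.

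Tags, the IP reads that the peak caller counted in a peak, numbered 118 and 99 for Fgf5 in Mettl14 set 1 and set 2. The Mettl3 libraries gave 85 and 54 tags in set 1 and set 2. Mettl14 knockdown libraries therefore held more Fgf5 tags than Mettl3 libraries, although library totals were not known and counts of different libraries cannot be set against each other without them. Divided by peak width, the tags were 17.6 and 15.9 per 100 nt for Mettl14 and 14.7 and 8.88 per 100 nt for Mettl3. The highest tag count was 2.19 times the lowest.

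The fold enrichment of a peak is the peak caller's ratio of IP to its own control library, and all folds and scores here are the authors' own. In the authors' deposited tables the Fgf5 fold was 9.29 and 8.66 in Mettl14 set 1 and set 2, and 9.97 and 9.12 in Mettl3 set 1 and set 2. These 4 values lay within 1.15 times of each other, a narrower range than that of the tags. The authors also multiplied knockdown folds by 1 constant per table (0.906, 0.777, 1.00 and 0.609 in the same order). After that scaling the authors' deposited tables give 8.42, 6.73, 10.0 and 5.55, with a mean of 7.67 ± 1.95 (SD, n = 4 libraries). This SD pools both knockdowns and both sets, so it is not a spread between replicates of 1 condition. The scaled values spread over 1.8 times, so much of their spread came with the constants.

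Statistical support for the Fgf5 peak differed more than its fold. The authors' deposited tables give a peak score, on a scale that grows as the caller's p-value falls, of 334 and 260 for Mettl14 and of 293 and 142 for Mettl3. The false discovery rate (FDR) assigned by the caller was 0.26% and 1.16% for Mettl14 in set 1 and set 2. It was 0.60% and 6.17% for Mettl3. The weakest, Mettl3 set 2, was also the library with the fewest tags, and the tables list peaks with an FDR below 10%.

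Among peaks found in a knockdown library alone, Fgf5 was long and rich in tags but low in fold. It held more tags than 95.0%, 85.2%, 88.9% and 73.1% of them in Mettl14 set 1, Mettl14 set 2, Mettl3 set 1 and Mettl3 set 2. In the same order it was wider than 92.1%, 81.8%, 86.7% and 81.4% of them. Its fold exceeded that of 10.9%, 17.7%, 12.2% and 23.4%. The median knockdown-only peak had 15, 27, 18 and 22 tags, against 69, 96, 75 and 83 for peaks shared with the scramble library. With 118, 99 and 85 tags, Fgf5 lay above the shared median in Mettl14 set 1, Mettl14 set 2 and Mettl3 set 1. With 54 tags it lay below that median in Mettl3 set 2. Its tags exceeded those of 74.9%, 61.6%, 59.0% and 43.7% of all knockdown peaks, shared and knockdown-only together.

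Foxc1 lies on mm10 chr13:31806633-31812476, plus strand, as a single exon of 5844 nt with a coding sequence of 1659 nt that ends before the stop codon at 31808867. Its 5 peaks fell at 2 sites that did not overlap in any library. One site lay inside the coding sequence, around the codons printed above as 135 to 234. The other lay at the end of the coding sequence and reached over the stop codon. The facing edges of the 2 sites were 640 nt apart.

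The coding site was listed in 3 of the 4 knockdown libraries. It covered 31807442 to 31807962 (521 nt) in Mettl14 set 1, 31807467 to 31807909 (443 nt) in Mettl3 set 1 and 31807468 to 31807916 (449 nt) in Mettl3 set 2. Mettl14 set 2 had no peak there. The 3 peaks had 442 nt in common, 84.8% of their union, and their summits lay 1079, 1067 and 1055 nt before the stop codon, within 24 nt of each other. All 3 lay wholly in coding sequence, over codons 79 to 252, 87 to 234 and 87 to 237.

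Tags at the coding site numbered 38 in Mettl14 set 1, 37 in Mettl3 set 1 and 42 in Mettl3 set 2. The 3 counts were close, and per 100 nt they came to 7.29, 8.35 and 9.35, below the Fgf5 density in the first 2 of these libraries and slightly above it in Mettl3 set 2. The fold in the authors' deposited tables was 14.5, 20.1 and 11.4, a spread of 1.76 times. Scaled, the authors' deposited tables give 13.1, 20.1 and 6.96. The FDR was 3.41%, 4.78% and 8.18%, so none of the 3 reached the 1% level that Fgf5 met in Mettl14 set 1 and Mettl3 set 1.

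The stop codon site of Foxc1 was listed in 2 libraries and rested on few tags. In Mettl14 set 2 it covered 31808691 to 31808883 (193 nt) with 11 tags, and in Mettl3 set 1 it covered 31808603 to 31808907 (305 nt) with 12 tags. The summits lay 22 and 95 nt before the stop codon. Coding sequence made up 91.2% and 86.6% of the 2 peaks, and 17 and 41 nt lay from the stop codon onwards. Mettl3 set 1 was the only library of the 4 with both Foxc1 sites.

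The highest Foxc1 enrichments belonged to this site and not to the coding site. In the authors' deposited tables its fold was 76.8 in Mettl14 set 2 and 162 in Mettl3 set 1, with an FDR of 6.46% and 3.08%. Scaled, the authors' deposited tables give 59.7 and 162. High folds and low tag counts went together throughout the tables: the median fold of knockdown-only peaks was 53.1, 26.4, 64.8 and 25.7, against 15.4, 11.9, 17.3 and 11.7 for shared peaks with more tags. A fold on 11 or 12 tags depends on a control signal that is itself small, and the control counts were not used here.

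**Figure D2:**
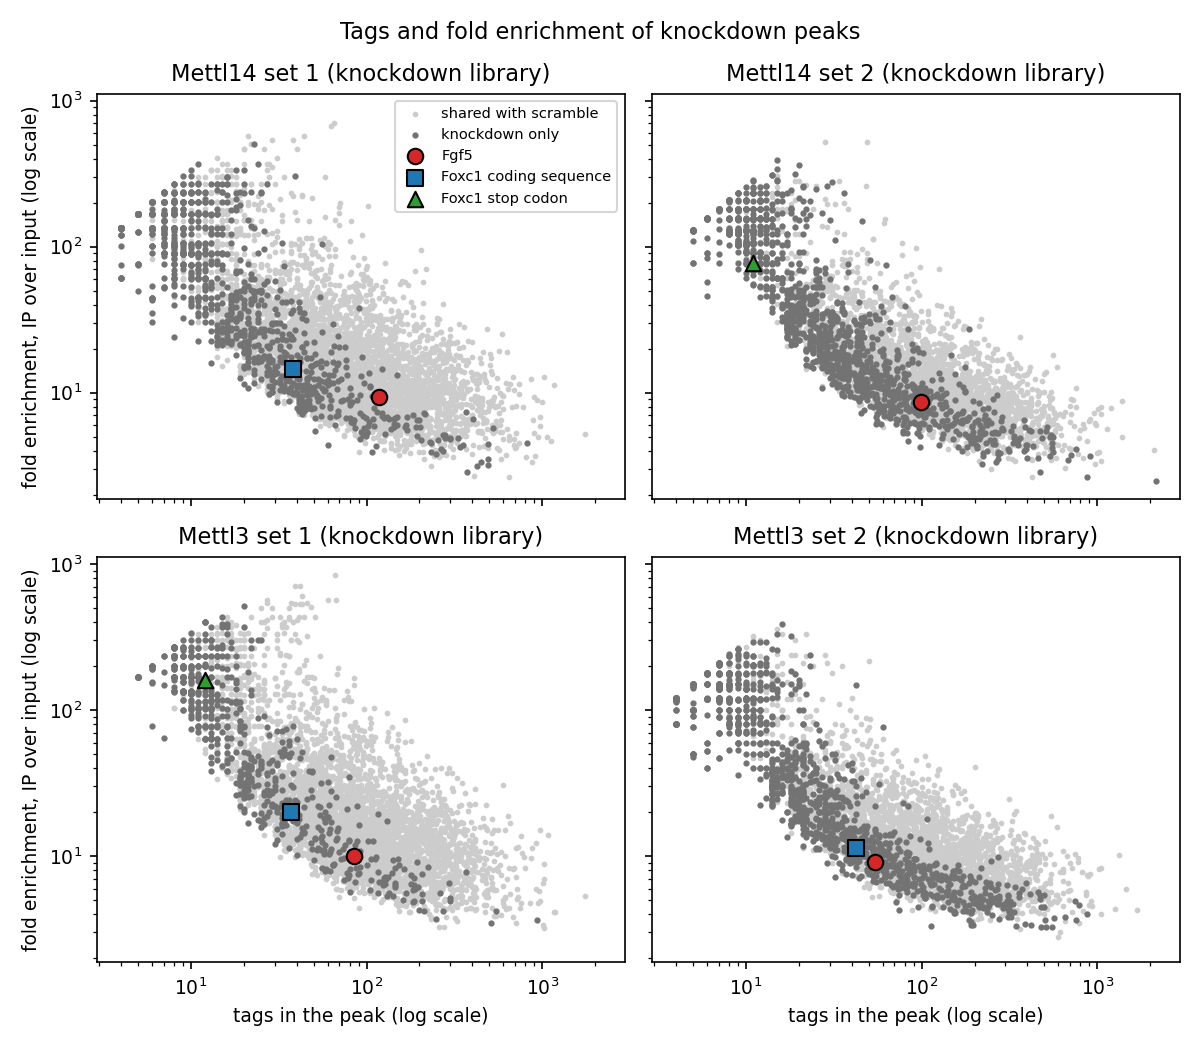
Tags (x axis, log scale) against the caller's fold enrichment (y axis, log scale) for the peaks of each knockdown table. Peaks found in the knockdown library alone and peaks shared with the scramble library are drawn apart, and the Fgf5 and Foxc1 peaks are marked. Fgf5 sits at 54 to 118 tags with folds near 9, the Foxc1 coding site at 37 to 42 tags, and the Foxc1 stop codon site at 11 and 12 tags with folds of 76.8 and 162.

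Taken by its highest peak in each library, Foxc1 averaged a scaled enrichment of 60.5 ± 71.9 (SD, n = 4 libraries of both knockdowns) in the authors' deposited tables. The SD exceeded the mean because the highest peak was the stop codon site in 2 libraries and the coding site in the other two. With the coding site alone the mean was 13.4 ± 6.6 (SD, n = 3), and with the stop codon site alone it was 111 ± 72.7 (SD, n = 2). The coding site exceeded 77.9%, 73.3% and 67.4% of the knockdown-only peaks of its 3 tables in tags, and the stop codon site 16.2% and 29.4%. Within Foxc1, therefore, the site with more tags had the lower fold.

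No scramble peak of either set, on either strand, overlapped any of the 9 regions by even 1 nt. The nearest scramble peak on the same strand belonged to Bmp2k, 1170 kb from Fgf5, and to Foxq1, 247 kb from Foxc1, in both sets. A missing peak says only that no region passed the caller's threshold, since the tables give no scramble value at a place without a scramble peak. Whether the signal there fell just short of that threshold was not tested. Transcript levels were not used here. Whether the Fgf5 and Foxc1 mRNAs were equally abundant in the 3 groups, and so whether more methylated or more total mRNA reached the antibody, was not tested. In such bulk RNA, fewer cells that express a gene and less of its RNA per cell cannot be told apart.

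Peaks listed for a knockdown alone were common in each table by itself. A gene with at least 1 such peak made up 13.1% of listed genes in Mettl14 set 1, 21.5% in Mettl14 set 2, 8.98% in Mettl3 set 1 and 20.7% in Mettl3 set 2. In all 4 tables, 55 of 6074 genes (0.905%) had one, and 30 (0.494%) also had no scramble peak in either set. Fgf5 and Foxc1 are among these 30 because they were selected on that pattern, and nothing is read from their membership.

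Within the 30 genes the pair differed from each other in position and strength. In 25 of the 30, Fgf5 included, at least 1 stretch was covered by a knockdown peak of all 4 libraries. Foxc1 was one of the other 5, since its Mettl14 set 2 peak lay elsewhere. Ordered by mean scaled enrichment from low to high, Fgf5 was number 7 and Foxc1 number 22, around a median of 31.4. In 8 of the 30 genes, Fgf5 included, the library with the fewest tags still had at least the 54 of Fgf5. Genes with the most tags among the 30 include Pelp1 (199 to 352), Thrap3 (190 to 249) and Rif1 (182 to 558). The 30 genes also include, on fewer tags, Bmp2 and Gdf6, ligands of the bone morphogenetic protein family. Nog, an antagonist of such ligands, and the homeobox gene En1 are among them too. Bmp2, Gdf6, Nog and En1 were picked by hand, and the share of such genes among all listed genes was not counted.

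All 3 stretches held DRACH matches, while GGACT, the form of DRACH best known from m6A maps, occurred on the transcript strand of the Foxc1 coding stretch alone. On the transcript strand the 577 nt common to the Fgf5 peaks held 15 DRACH (26.0 per kb, against 16.4 per kb over the whole transcript) and no GGACT. The whole Fgf5 transcript holds no GGACT. None of the 8 matches printed above starts with GGAC. The fourth of them, GAACA, has its central A 2 nt from the Mettl14 set 2 summit.

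The Foxc1 coding stretch, 442 nt, held 8 DRACH (18.1 per kb, against 13.7 per kb over the transcript), of which 1 was GGACT. Unlike in Fgf5, other matches also start with GGAC: 4 were GGACA and 1 was GGACC. Of the 4 matches printed above, the third has its central A 2 nt from the Mettl14 set 1 summit. The 193 nt common to the Foxc1 stop codon peaks held 4 DRACH (20.7 per kb) and no GGACT. Counted on the opposite strand, the 3 stretches held 10, 2 and 5 DRACH and 2, 0 and 0 GGACT.

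Against stretches of equal length tiled over the longest protein-coding transcript of 21877 genes, the Fgf5 DRACH count was in the upper part of the range and the others near its middle. Stretches of 577 nt held a median of 12 DRACH (10th to 90th percentile 7 to 17). Those of 442 nt held 9 (5 to 13), and those of 193 nt held 4 (1 to 7). GGACT was present in 45.3%, 37.0% and 18.2% of stretches of these 3 lengths, so a stretch without it is ordinary. A match is a sequence only, and neither a match nor its absence shows where the methyltransferase acts. The G and C content was 50.8% in the Fgf5 stretch, 64.5% in the Foxc1 coding stretch and 56.0% in the Foxc1 stop codon stretch. Over the transcripts it was 47.0% for Fgf5 and 55.9% for Foxc1.

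Fibroblast growth factor ligands signal through receptor tyrosine kinases to ERK. Of 22 ligand genes, 9 were listed, and 6 of these had a scramble peak. Knockdown-only peaks were found in 3 of 8 listed ligands in Mettl14 set 1, 1 of 5 in Mettl14 set 2, 2 of 8 in Mettl3 set 1 and 1 of 5 in Mettl3 set 2. All listed genes gave 13.1%, 21.5%, 8.98% and 20.7% in the same order, and the ligand counts include Fgf5. Fgf5 was the ligand counted in every table, and the other 3 occurrences were single tables. Fgf10, a ligand of limb and lung budding, had one in Mettl14 set 1 on 10 tags (scaled 82.5). Fgf20 had one there on 7 tags (scaled 153) and a scramble peak of 65.9 in set 1. Fgf2 had one in Mettl3 set 1 on 11 tags (scaled 168).

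Fgf4, the main FGF of naive embryonic stem cells, gives the contrast within the family. In the authors' deposited tables its highest enrichment was 6.14 and 7.13 in the scramble libraries. It was 6.57 and 6.51 in Mettl14 set 1 and set 2, and 9.25 and 4.68 in Mettl3, on 185 to 285 tags in the knockdowns. The scaled enrichment of Fgf5 lay slightly above that of Fgf4 in every knockdown library, but Fgf4 had a peak in all 6 libraries. Fgf3 and Fgf18 also had peaks in all 6. Fgf17 showed the opposite arrangement to Fgf5: 7.67 and 8.39 in the scramble libraries and, in the knockdowns, 4.72 in Mettl3 set 2 only.

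Among 24 FGF receptors and signal transducers, 10 were listed and 9 had a scramble peak. A knockdown-only peak was found in 1 of 8, 2 of 8, 1 of 8 and 2 of 9 listed genes in Mettl14 set 1, Mettl14 set 2, Mettl3 set 1 and Mettl3 set 2, against 13.1%, 21.5%, 8.98% and 20.7% of all listed genes. The receptor gene Fgfr2 had one in all 4 tables. Unlike Fgf5 it also had scramble peaks in both sets (43.9 and 267), and its highest knockdown values in the authors' deposited tables were 63.1, 142, 51.7 and 20.5. Of 17 feedback genes and targets of FGF and ERK signalling, such as the Sprouty and Dusp families, 13 were listed. All 13 had a scramble peak, and only Dusp4 had a knockdown-only peak, in Mettl3 set 2.

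**Figure D3:**
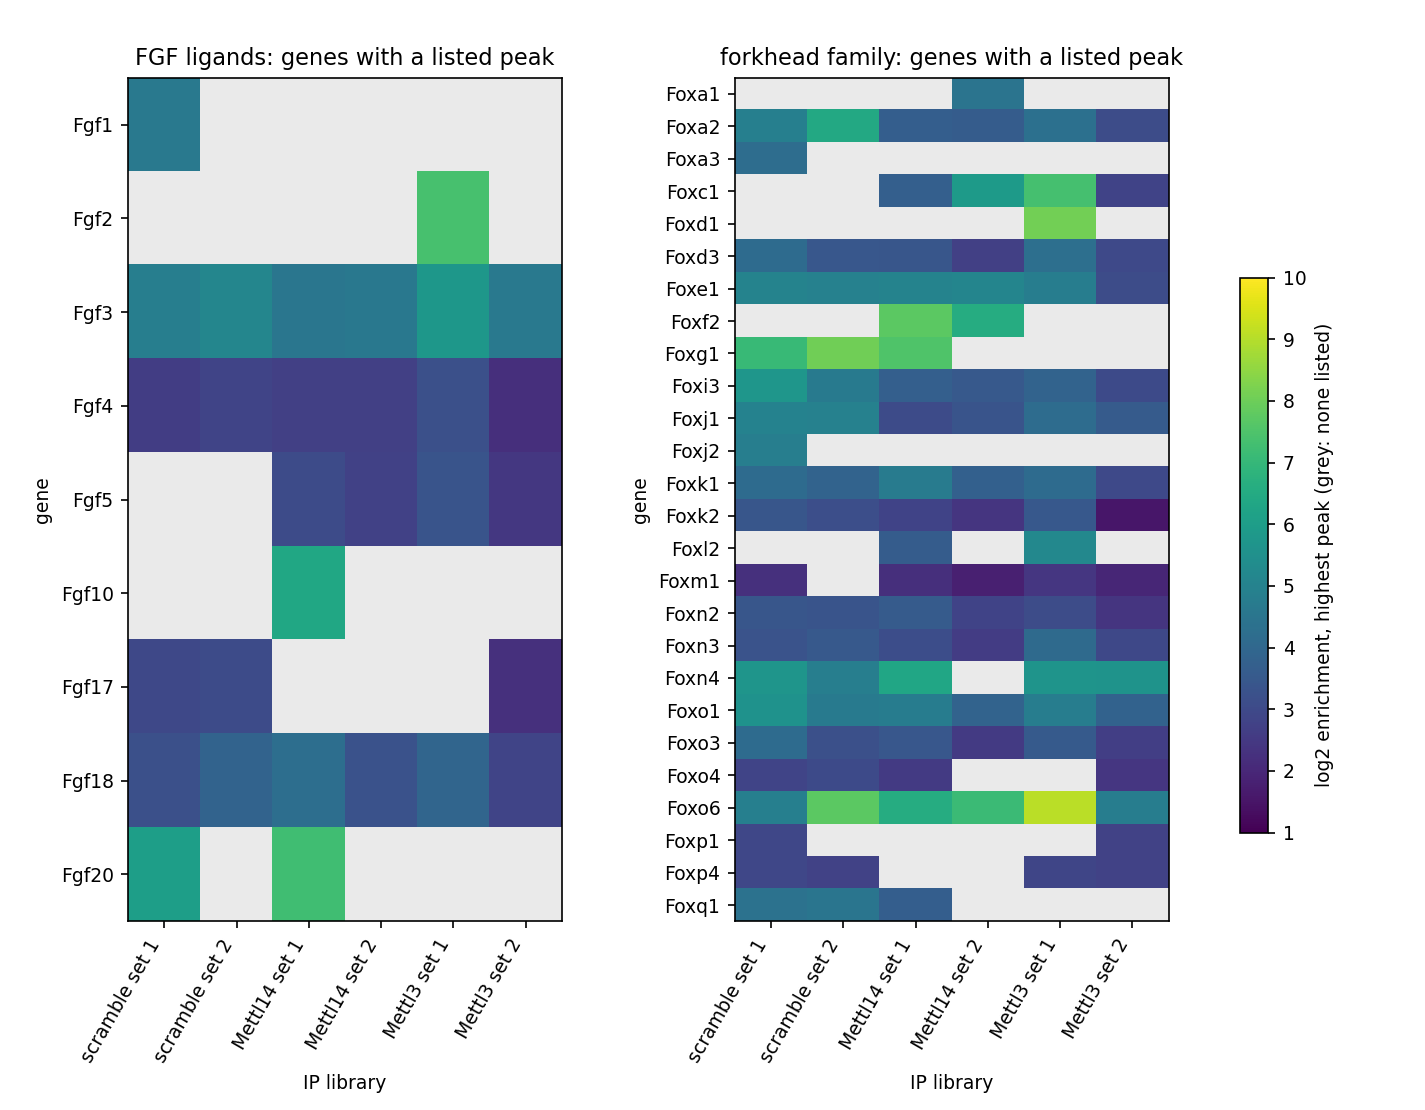
Log2 of the highest enrichment per gene (colour, scramble values and scaled knockdown values of the authors' deposited tables) for FGF ligands (left) and forkhead genes (right) with any listed peak. Columns are the 6 IP libraries, and grey means that no peak was listed. Fgf5 and Foxc1 are the genes of their families that are grey in both scramble columns and coloured in all 4 knockdown columns.

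Of 19 primed epiblast genes, 11 were listed and 10 had a scramble peak, Fgf5 being the exception. Knockdown-only peaks were found in 2 of 11, 1 of 8, 3 of 11 and 2 of 8 listed genes, in the same order of tables, against 13.1%, 21.5%, 8.98% and 20.7% of all listed genes. Each of these counts includes Fgf5, which was chosen for such peaks. Sox3, a neural and epiblast transcription factor, had them in 2 tables. Its highest enrichments in the authors' deposited tables were 119 and 290 in the scramble libraries. In the knockdowns they were 15.1, 6.78, 22.6 and 12.6, on 76, 62, 61 and 45 tags. Here and in the lists below, such values are the highest at any site of a gene. Scramble and knockdown values therefore need not belong to the same peak, and scramble tags were not compared. Foxd3, a forkhead factor of the epiblast and neural crest, had 17.5 and 11 in the scramble libraries and 10.7, 6.60, 19.5 and 7.98 in the knockdowns. Fgf5 was chosen for its peaks in the knockdowns alone, and no other listed gene of this group had that pattern.

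The forkhead family was listed broadly: 26 of 44 genes, 21 with a scramble peak. Knockdown-only peaks were found in 5 of 24 listed forkhead genes in Mettl14 set 1, 8 of 21 in Mettl14 set 2, 5 of 24 in Mettl3 set 1 and 6 of 20 in Mettl3 set 2. These shares lie above the 13.1%, 21.5%, 8.98% and 20.7% of all listed genes, on counts that include Foxc1, and the difference was not tested. Foxa2, an endoderm and node factor, had a knockdown-only peak in all 4 tables as Foxc1 did. Foxa2 also had scramble peaks, the highest at 29.7 and 87.1. Its highest knockdown values in the authors' deposited tables were 12.9, 12.4, 20.1 and 8.52, not necessarily at the same site.

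Foxf2 and Foxl2 came nearest to Foxc1 within the family, with knockdown-only peaks in 2 tables and no scramble peak. Foxf2 is a factor of mesenchyme and lies 175 kb from Foxc1 on the same chromosome. It was listed in Mettl14 only, at 212 on 18 tags in set 1 and 95.5 on 11 tags in set 2 of the authors' deposited tables. Foxl2, an ovarian factor, was listed in set 1 only, at 12.3 on 29 tags for Mettl14 and 36.4 on 21 tags for Mettl3. Foxq1, 246 kb from Foxc1, had the reverse pattern, 21 and 22.6 in the scramble libraries, 13.0 in Mettl14 set 1 and no peak in the other 3 knockdown libraries. Neither neighbour had the pattern of Foxc1 in all 4 knockdown libraries.

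Of 30 mesoderm genes, 12 were listed and 10 had a scramble peak. Knockdown-only peaks were found in 2 of 12, 3 of 9, 1 of 11 and 2 of 8 listed genes, against 13.1%, 21.5%, 8.98% and 20.7% of all listed genes. Each of these counts includes Foxc1, which was chosen for such peaks. Eomes, a T-box factor of the primitive streak, had knockdown-only peaks in 2 tables, a scramble value of 37.3 in set 1 alone and knockdown values of 17.2, 16.7, 21.3 and 16.2 in the authors' deposited tables. Foxc1 was chosen for its knockdown-only peaks in all 4 tables, and no other listed mesoderm gene had one in all 4.

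The cultures held feeder fibroblasts, in which Foxc1 can be expressed. Of 20 feeder fibroblast markers, 5 had any listed peak: Col5a1, Thy1, Twist1, Pdgfrb and Fbn1. Twist1 and Pdgfrb had a peak in both scramble libraries. Among the others, Col1a1, Col1a2, Col3a1, Fn1 and Vim had none in any library. By library, 3 and 2 markers were listed in the scramble, 4 and 2 in Mettl14 and 1 and 0 in Mettl3. Their summed enrichment in the authors' deposited tables was 151 and 73.0 in the scramble, 210 and 131 in Mettl14 and 48.7 and 0 in Mettl3. A marker without a listed peak adds nothing to such a sum, and only the knockdown values are scaled. The Mettl14 sums rested partly on few tags: Fbn1 gave 81.1 on 8 tags in set 1, and Thy1 gave 119 on 9 tags in set 2. Knockdown-only peaks were found in 1 of 4, 2 of 4, 0 of 3 and 0 of 2 listed markers, against 13.1%, 21.5%, 8.98% and 20.7% of all listed genes. A marker without an m6A peak may still be expressed, and the part of feeder RNA in the Foxc1 peaks was not tested.

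Pluripotency markers were listed for 7 of 20 genes, with 5 having a scramble peak, and Pou5f1 and Nanog had no listed peak in any library. By library, 5 and 4 were listed in the scramble, 7 and 6 in Mettl14 and 6 and 7 in Mettl3. Summed enrichment was 28.5 and 20.6 in the scramble, 66.2 and 30.5 in Mettl14 and 62.5 and 33.1 in Mettl3, in the authors' deposited tables. A marker without a listed peak adds nothing, so the sums grow with the number of markers listed. Knockdown values are scaled and scramble values are not, so no general gain is read from these sums. Knockdown-only peaks were found in 3 of 7, 2 of 6, 1 of 6 and 4 of 7 listed markers, against 13.1%, 21.5%, 8.98% and 20.7% of all listed genes. Zfp281, a zinc finger factor of the primed transition, had them in all 4 tables with no scramble peak, at 10.1, 6.84, 19.5 and 4.94. Klf4 had them in 2 tables, at 9.88, 6.14, 11.8 and 6.28, beside scramble values of 4.58 and 3.79. Klf2 had them in 2 tables, at 4.65, 2.87, 6.15 and 3.40, beside 4.78 in scramble set 1. Esrrb had them in Mettl14 set 1 (9.42, 58 tags) and Mettl3 set 2 (4.39, 62 tags) and had no scramble peak.

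The genes whose levels were most like those of Fgf5 over the 6 IP libraries were found by distance in log2(highest enrichment + 1), with 0 where no peak was listed, over 3849 genes. D10Wsu102e was the nearest, at a distance of 0.399, with 7.78, 7.27, 8.20 and 6.90 in the authors' deposited tables and 73 to 103 tags. March8, a membrane-bound ubiquitin ligase, followed at 0.749 and Zfp281 at 0.937. March8 had 10.1, 7.70, 16.7 and 5.77 on 33 to 49 tags. For Foxc1 the nearest were Bhlhe22 at 2.01, En1 at 2.42 and Kcnq3 at 2.43, all farther away than any of the 3 genes nearest to Fgf5. Bhlhe22, a neural helix-loop-helix factor, had 25.1, 31.8, 195 and 22.3 in the authors' deposited tables, on 9 to 33 tags, and so shared with Foxc1 a high Mettl3 set 1 value on few tags. None of these 6 genes had a scramble peak. The distance favours such genes, since both members count as 0 in both scramble libraries, so nothing is read from it.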

How the data were processed

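Anti-m6A IP libraries from J1 cells were compared in 4 tables, each listing the peaks of 1 knockdown and 1 scramble library. The submitters' processing notes name TopHat2 2.0.6 and Bowtie 0.12.7 (alignment tools), cutadapt 1.1, CASAVA 1.8.2, Picard 1.74, SAMtools 0.1.18 and the build mm10. Not given in the sources used here are the peak caller's version, the gene annotation, the basis of the scaling constants, and the match between the labelled replicate numbers and the 2 sets.

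Per the file headers, the authors deposited for each peak a tag count, a fold enrichment (a ratio, IP over the matching control), a scaled ratio, a peak score (minus 10 times log10 of the p-value) and an FDR in percent. Scramble enrichments of shared peaks were solved from the authors' deposited signed fold, and matched deposited values within 0.01 for 1624 of 1624 peaks in set 1 and 1209 of 1209 in set 2. Total reads per library were not known.

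Peaks were taken by gene name and by the authors' marking as knockdown only, and overlap meant at least 1 nt. Of 6097 listed gene IDs, 6026 were in GENCODE M21. A library's level of a gene was its highest enrichment there. DRACH and GGACT (one of the DRACH forms) were counted on both strands, overlapping matches included. Named genes were Fgf5 and Foxc1, up to 5 members of each of 8 lists with a knockdown-only peak in at least 2 tables, and the 3 genes nearest to each member among genes with a peak in at least 3 libraries. The other ligands, Dusp4, Foxq1, the feeder markers with a peak and the further genes among the 30 were named after their values were seen. The members and lists were chosen with earlier results of these data known. No test was run, as the members were chosen by these values. The calculations were tested on simulated data, with Python 3.11.15, pandas 2.3.3 and numpy 2.4.6. Alternatives were stricter FDR and tag limits, other overlap rules, unscaled folds, means over peaks and leaving out a set.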

Additional observations from a re-analysis of the deposited data

How the results depend on the processing

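An alternative kept the reported value if a count stayed within 1.5 times, or a mean within 1 SD, of it. That SD is between the knockdown libraries, both knockdowns pooled. Of 39 alternatives, 27 kept the value and 12 moved it farther. Some of these outcomes were fixed beforehand, so the tally does not measure stability. The Foxc1 mean, 60.5, had an SD of 71.9, so 13.4 (coding site alone) and 111 (stop codon site alone) both counted as kept. Leaving out a set leaves 2 tables, so the Fgf5 and Foxc1 table counts had to move. Overlap and strand rules kept both genes at 4 tables. They could not do otherwise, since no scramble peak of either set or strand overlapped any of their regions. Selection by position also kept both at 4 tables. An FDR of at most 5% kept Fgf5 in 3 tables and Foxc1 in 2, and an FDR of at most 1% kept Fgf5 in 2 and Foxc1 in 0. With at least 20 tags, Fgf5 kept 4 tables and Foxc1 3. Counting the Foxc1 stop codon site alone, an alternative added after the data were seen, gave 2 tables, and the coding site alone gave 3. Without replicate set 1 or without replicate set 2, each gene had a peak in 2 of the 2 tables left (range 2 to 2). Of the 55 genes with a knockdown-only peak in all 4 tables, an FDR of at most 5% left 26, neither Fgf5 nor Foxc1 among them. At least 20 tags left 38, Fgf5 but not Foxc1 among them. Asking the 55 genes for no scramble peak, without a tag limit, left 30, with both genes among them by selection. Leaving out a set, with 2 tables left to meet, gave 212 to 353 genes. The mean scaled enrichment of Fgf5, 7.67, was 9.26 unscaled and 6.14 to 9.21 without a set. That of Foxc1, 60.5, was 66.2 unscaled, 42.8 as a mean over peaks, 33.7 weighted by tags and 33.3 to 87.8 without a set. No paired analysis was possible because the tables give no value per library at loci without a peak. Depth was not known, and the Foxc1 stop codon site rests on 11 and 12 tags.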
